A study of Mus musculus with 2 samples.

Results

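The complement genes examined here encode components, receptors and regulators of complement, and they were compared between the main subsets of conventional dendritic cells (DCs) of mouse spleen. CD8+ DCs and CD8- DCs were taken from C57BL/6 mice that carried B16 melanoma cells, a mouse tumour line, producing Flt3 ligand, a cytokine that expands DCs. The spleens were used 10 to 12 days after the tumour cells were injected, and DCs were sorted as CD11c+ cells lacking CD3 and B220, with or without CD8α. Both populations came from tumour-bearing animals, neither was stimulated, and how many mice contributed to each is not given in the sources used here. Total RNA of each population was hybridised to 1 Affymetrix array, so no value has a replicate and no test was possible. A difference between the arrays cannot be told apart from variation between mice, sorts or hybridisations.

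The members were 10 named genes, C1qa, C1qb, C1qc, C3, C3ar1, C5ar1, Cfp, Cd55, Cr1l and Cd59a, and a probe set was taken where its annotation held exactly 1 gene and that gene was among them. This gave 20 probe sets for 9 of the 10 genes, of 18194 genes and 45101 probe sets on the array. The table used to name the probe sets lists none for C3, the central component, so C3 is not analysed here. One more probe set was annotated to Cd55 and to its neighbouring copy Cd55b together and was left out; it read 1.78 in the CD8+ subset and 1.66 in the CD8- subset. Values are log2 signals made by RMA, and a value below the median of the whole table, 3.85, was taken as near background and is called below the floor. A gene was measured where at least 1 array reached the floor. By this rule 5 members were measured and 4 were below the floor on both arrays.

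Complement is a cascade of plasma proteins that tags particles, recruits leukocytes and can lyse membranes. The classical pathway starts when C1q, built from the chains encoded by C1qa, C1qb and C1qc, binds antibody or a cell surface. Most other complement proteins come from the liver, whereas C1q and properdin are made chiefly by myeloid cells. Splenic macrophages are a known source of C1q. Membrane regulators protect a cell from complement deposited on its own surface.

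Marker RNA went with the labels of the sort. CD8α and CD11c were used to sort, and the marker lists were chosen with earlier results of these data known. The counts are therefore a description and no independent check. All 7 DC markers were measured on both arrays. Of the 8 CD8+ DC markers with a probe set, 7 were higher by 2-fold or more in CD8+ DCs (Cd8a, Xcr1, Cadm1, Irf8, Itgae, Cd207 and Tlr3). All 8 CD8- DC markers with a probe set were higher by 2-fold or more in CD8- DCs (Itgam, Sirpa, Irf4, Cd4, Cx3cr1, Csf1r, Tlr7 and Cd209a). Lists of T cell, NK cell, erythroid, platelet and melanoma markers held no measured gene that differed by 2-fold. In bulk RNA, fewer cells of a type and less RNA per cell cannot be told apart.

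The main pattern was a dim C1q signal, above the floor in CD8- DCs and below it in CD8+ DCs. Properdin signal was higher in CD8- DCs at 1 of its 2 probe sets. By the values as deposited, 4 of the 5 measured members were higher by 2-fold or more in CD8- DCs, namely C1qa, C1qb, C1qc and Cfp, and 0 were so in CD8+ DCs. Across the 11404 measured genes, 5.97% were higher by 2-fold or more in CD8- DCs and 3.55% in CD8+ DCs. The C1q genes were measured through the CD8- array alone, where they were brighter, so the count over measured members is a description and nothing is read from it. With the floor in place of any value below it, the count was 3 members, without C1qc, against 5.55% of all measured genes. Over all 9 members with a probe set the median log2 difference, CD8+ minus CD8-, was -0.18, beside 0.06 over all 18194 genes without the filter. Over the 5 measured members the median was -1.29, the value of C1qc, beside 0.03 over all measured genes. The C1q genes passed the filter through the CD8- array alone, so nothing is read from the median of the measured members either.

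**Figure D1:**
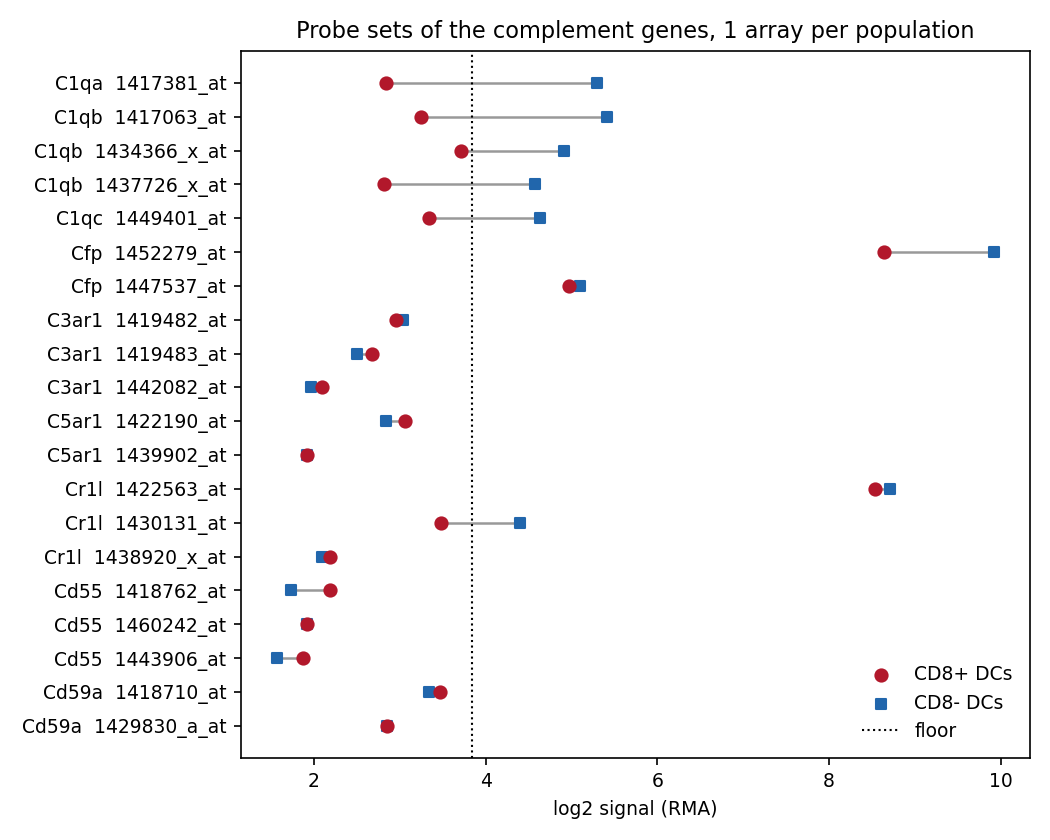
Log2 signal of the 20 probe sets of the complement genes in CD8+ DCs (circles) and CD8- DCs (squares), 1 array each, with the floor of 3.85 as a dotted line. The 5 probe sets of the C1q genes lie below the floor in CD8+ DCs and above it in CD8- DCs, and 11 probe sets lie below it on both arrays.

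C1qa, which encodes the A chain of C1q, gave a log2 reading of 2.84 in the CD8+ subset and 5.30 in the CD8- subset. The first value was below the floor, so the fold is a lower bound: C1qa was at least 2.75-fold higher in the CD8- subset. C1qb, the gene of the B chain, was read by 3 probe sets. The brightest read 3.25 in the CD8+ subset and 5.41 in the CD8- subset, at least 2.96-fold higher in the CD8- subset. The other C1qb probe sets, whose names mark them as prone to cross-hybridisation, read 3.71 and 2.82 in the CD8+ subset, against 4.91 and 4.57 in the CD8- subset. The log2 differences of the 3 C1qb probe sets were -2.16, -1.20 and -1.75, all in the same direction. C1qc, the gene of the C chain, read 3.34 in the CD8+ subset and 4.63 in the CD8- subset, at least 1.72-fold higher in the CD8- subset. All 5 C1q probe sets were thus below the floor in CD8+ DCs and between 4.57 and 5.41 in CD8- DCs. Without detection calls, such dim readings do not establish that C1q was expressed in CD8- DCs.

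The C1q genes shared this pattern with many others. In all, 365 genes lay under the floor in the CD8+ subset and reached it in the CD8- subset. By the values as deposited, 47.7% of them were higher by 2-fold or more in CD8- DCs, all 3 C1q genes included. With the floor in place of their CD8+ value, 126 of them (34.5%) were higher by 2-fold or more in CD8- DCs, as C1qa and C1qb were and C1qc was not. Since the CD8+ values of the C1q genes are near background, the sizes of their differences are bounds and are not ranked.

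C1q is a known product of spleen macrophages, so the macrophage marker list is given beside it. Of 14 markers, 7 were measured, with 1 at least 2-fold higher in the CD8+ subset and 2 in the CD8- subset. Adgre1, an adhesion receptor gene widely used as a macrophage marker, read 4.63 in the CD8+ subset and 8.22 in the CD8- subset, and Axl, a receptor kinase gene for dead cell recognition, read 3.28 in the CD8+ subset and 5.39 in the CD8- subset. In the other direction, the haem oxygenase gene Hmox1 read 6.80 in the CD8+ subset and 5.65 in the CD8- subset. The other 7 were near background. Spic, Mertk, Cd163, Slc40a1, Cd5l, Timd4 and Mrc1 were below the floor in both populations, with Cd5l at 2.78 in the CD8+ subset and 2.85 in the CD8- subset and Slc40a1 at 3.15 on both arrays. Vcam1, an adhesion molecule gene of red pulp macrophages, was above the floor on both arrays, at 5.52 in the CD8+ subset and 4.66 in the CD8- subset, and its 3 probe sets differed by 0.42 to 2.49. The Fc receptor gene Fcgr1 read 4.36 in the CD8+ subset and 4.26 in the CD8- subset, and its probe sets disagreed, at 0.10 and -1.65. Marco and Siglec1, genes of marginal zone and metallophilic macrophages, were just above the floor, with Marco at 4.58 in the CD8+ subset and 4.18 in the CD8- subset and Siglec1 at 4.49 in the CD8+ subset and 4.38 in the CD8- subset. The 14 markers summed to a log2 signal of 8.33 in the CD8+ subset and 9.10 in the CD8- subset. Adgre1 alone made up most of the CD8- sum. Such sums add levels of different probes, which are not comparable, so nothing is read from them. In the monocyte and neutrophil list, 3 of 10 genes with a probe set were measured, and the list summed to 7.32 in the CD8+ subset and 9.50 in the CD8- subset. Most of the CD8- sum was the monocyte chemokine receptor gene Ccr2, the 1 gene of the list past 2-fold. Ccr2 read 6.03 in the CD8+ subset and 9.32 in the CD8- subset. The neutrophil granule gene Ngp read 4.45 in the CD8+ subset and 3.58, below the floor, in the CD8- subset, and Csf3r read 3.72, below the floor, in the CD8+ subset and 4.37 in the CD8- subset, while the granulocyte genes S100a8 and S100a9 were below the floor on both arrays. In the B cell list, 4 of 9 genes with a probe set were measured, and Cd22 made up most of the CD8- sum. The list summed to 7.23 in the CD8+ subset and 9.40 in the CD8- subset. It held 2 genes higher by 2-fold or more in CD8- DCs, Cd79b (3.28 in the CD8+ subset and 6.59 in the CD8- subset) and Cd22 (4.41 in the CD8+ subset and 8.89 in the CD8- subset), while Ms4a1, which encodes CD20, was slightly higher in CD8+ DCs (5.74 in the CD8+ subset and 4.99 in the CD8- subset) and Cd79a and Pax5 were below the floor in both. In the plasmacytoid DC list, Tcf4 was higher in CD8- DCs (5.47 in the CD8+ subset and 7.55 in the CD8- subset) and Ccr9 higher in CD8+ DCs (8.03 in the CD8+ subset and 5.94 in the CD8- subset). The part of other cells in the C1q signal was not tested.

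C1qb, C1qc and C1qa are consecutive protein-coding genes on mouse chromosome 4 in the RefSeq annotation, and their signals differed in the same direction. The stretches upstream of the starts of C1qb and C1qc, and of Cfp on the X chromosome, are shown. These genes were chosen because the brightest probe set of each read at least 2-fold higher in CD8- DCs by the values as deposited. For Cfp the dimmer probe set did not show this difference. C1qa also read higher in CD8- DCs, but the upstream sequences used held no entry for it, so none is shown. Sequences are the 250 bases before the start from RefSeq (GRCm38.p6), read 5′ to 3′ on the gene's minus strand, at chr4:136886201-136886450 for C1qb, chr4:136892915-136893164 for C1qc and chrX:20931556-20931805 for Cfp. Capitals mark the PU-box letters GAGGAA, the core bound by the myeloid factor PU.1, on either strand.
C1qb: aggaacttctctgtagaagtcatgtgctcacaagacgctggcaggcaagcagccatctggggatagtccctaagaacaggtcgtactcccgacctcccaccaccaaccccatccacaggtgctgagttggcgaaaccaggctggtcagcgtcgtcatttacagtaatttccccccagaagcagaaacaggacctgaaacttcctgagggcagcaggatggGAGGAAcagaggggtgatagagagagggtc
C1qc: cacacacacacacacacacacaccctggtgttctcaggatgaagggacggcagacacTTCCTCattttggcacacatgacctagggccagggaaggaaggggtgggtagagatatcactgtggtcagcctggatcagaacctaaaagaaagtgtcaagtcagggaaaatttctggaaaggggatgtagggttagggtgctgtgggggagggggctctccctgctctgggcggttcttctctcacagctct
Cfp: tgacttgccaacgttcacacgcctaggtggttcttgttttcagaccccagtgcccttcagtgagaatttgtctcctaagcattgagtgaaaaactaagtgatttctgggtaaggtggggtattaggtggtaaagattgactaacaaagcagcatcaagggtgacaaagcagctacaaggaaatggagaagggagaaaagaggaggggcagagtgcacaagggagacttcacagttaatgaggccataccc

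GAGGAA was found once upstream of C1qb, 30 bases before the start on the gene's strand, and once upstream of C1qc, beginning 193 bases before the start on the opposite strand. It was also found once upstream of Cd59a, a gene below the floor on both arrays, and in 23.3% of the 32851 upstream stretches of this length in the RefSeq table. It was not among the letters of the Cfp stretch. The interferon-gamma element TTCNNNGAA, present in 7.02% of all stretches, was not found on either strand upstream of any of the 9 members searched, all but C1qa. A match of letters is a description of these windows, and no binding was measured.

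Cfp, which encodes properdin, the stabiliser of the alternative pathway convertase, was well above the floor on both arrays. Its brighter probe set read 8.64 in the CD8+ subset and 9.92 in the CD8- subset, a log2 difference of -1.28, or 2.43-fold higher in CD8- DCs. Among the 726 measured genes whose mean signal was within 0.5 of it, 28 (3.86%) had a difference as low or lower, and the quartiles of that group were -0.25 and 0.28. The other Cfp probe set did not show the difference, with 4.97 in the CD8+ subset and 5.10 in the CD8- subset, or -0.13 on the log2 scale. With the probe sets averaged, the Cfp difference was -0.70, under 2-fold. The spread between probe sets of a gene, pooled over 5183 genes with several above the floor, was a SD of 0.30. For the 2 Cfp probe sets it was 0.82. The pooled value covers genes of any difference, so it does not say how far probe sets usually disagree for genes past 2-fold.

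**Figure D2:**
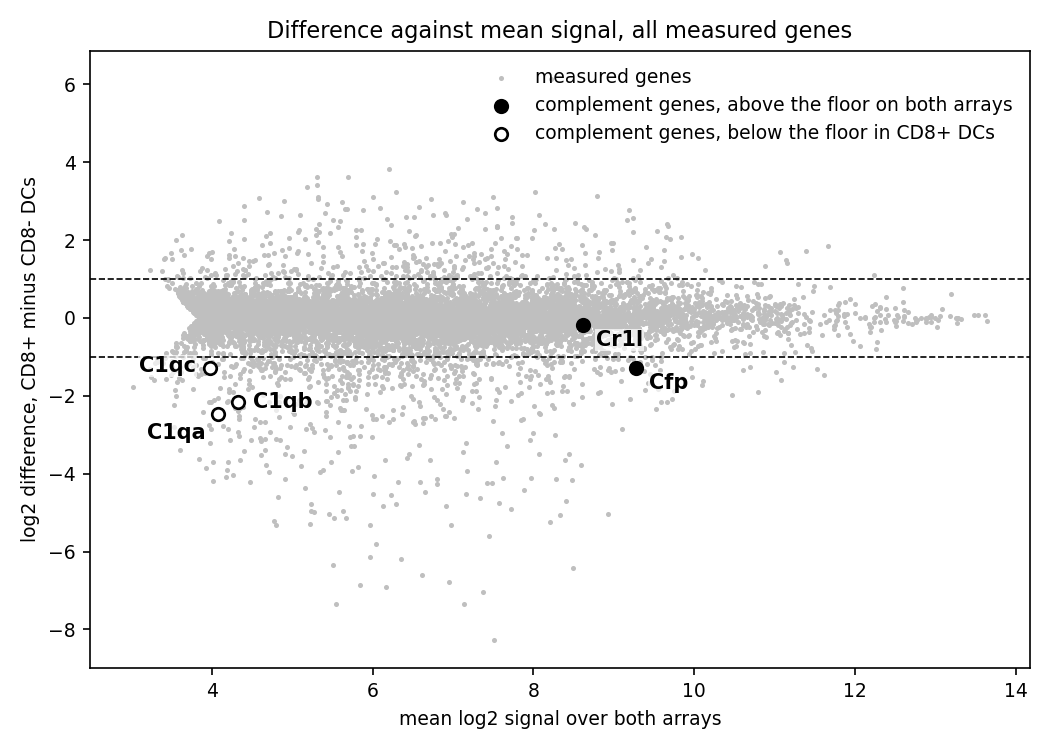
Log2 difference, CD8+ minus CD8-, against the mean log2 signal over both arrays for 11404 measured genes (grey), with the 5 measured complement genes as large circles, open where the CD8+ value is below the floor, and 2-fold marked by dashed lines. The C1q genes (open) sit at the dim end, where the plotted difference rests on a near-background value, Cfp lies below the lower dashed line at a bright signal, and Cr1l (-0.18) lies near 0.

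The receptors for the anaphylatoxins, the small fragments released when C3 and C5 are cleaved, were near background on both arrays. C3ar1, the C3a receptor gene, was read by 3 probe sets, the brightest at 2.96 in the CD8+ subset and 3.04 in the CD8- subset. C5ar1, the C5a receptor gene, was read by 2 probe sets, the brighter at 3.06 in the CD8+ subset and 2.84 in the CD8- subset. All 5 probe sets of these receptors were below the floor, between 1.92 and 3.06 in CD8+ DCs and between 1.92 and 3.04 in CD8- DCs. Without detection calls, these signals do not show that the receptors were absent, and no fold is given.

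Of the membrane regulators, 1 was clearly above background. Cr1l encodes Crry, a rodent regulator that limits C3 activation on the cell's own surface. Its brightest probe set read 8.53 in the CD8+ subset and 8.71 in the CD8- subset, a log2 difference of -0.18. Among 1178 genes of similar mean signal, 29.7% had a difference as low or lower, so Cr1l lay inside the bulk of genes. A second, dim Cr1l probe set read 3.48, below the floor, in the CD8+ subset and 4.40 in the CD8- subset, and the third was below the floor on both arrays (2.19 in the CD8+ subset and 2.10 in the CD8- subset). Cd55, the gene of decay-accelerating factor, which dismantles convertases, had 3 probe sets with readings of 1.88 to 2.18 in CD8+ DCs and 1.57 to 1.92 in CD8- DCs. Cd59a, whose protein blocks the membrane attack complex, read 3.47 and 2.85 in the CD8+ subset, against 3.34 and 2.85 in the CD8- subset. Both Cd55 and Cd59a were therefore below the floor in both populations, with differences on the log2 scale of at most 0.45 that rest on near-background signals. Across the 4 members below the floor, 6 of 10 probe sets were slightly higher in CD8+ DCs, 1 was lower and 3 were equal. The median log2 difference over all genes without the filter was 0.06, also toward CD8+ DCs, so nothing is read from these directions.

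The rest of the complement system was mostly dim or nearly equal. Of 53 other complement genes listed, 43 had a probe set and 14 were measured. Of the 14, 1 was higher by 2-fold or more in CD8- DCs and 0 in CD8+ DCs. Over the 11404 measured genes, of 18194 on the array, the shares were 5.97% and 3.55%, so nothing is read from these counts. The median log2 difference of the 14 was -0.06, beside 0.03 over all measured genes. The 1 gene was Itgam, which encodes the α chain of complement receptor type CR3, at 2.78 in the CD8+ subset and 7.77 in the CD8- subset, at least 15.2-fold higher in the CD8- subset. Itgax, the α chain gene of CR4 and of the CD11c used in the sort, read 9.80 in the CD8+ subset and 10.69 in the CD8- subset, and the shared β chain gene Itgb2 read 11.17 in the CD8+ subset and 11.57 in the CD8- subset. C1qbp, the gene of a mostly mitochondrial protein that binds C1q in vitro, read 11.04 in the CD8+ subset and 10.72 in the CD8- subset, and so was slightly higher in CD8+ DCs. Calr and Lrp1, chosen after their values were seen, encode calreticulin and its partner receptor in the uptake of C1q-coated cells. Calr read 10.44 in the CD8+ subset and 9.78 in the CD8- subset, with its 3 probe sets differing by 0.64 to 0.67, and Lrp1 read 3.64, below the floor, in the CD8+ subset and 4.53 in the CD8- subset.

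The genes listed for the start of the classical and lectin pathways were dim or below the floor. Of these, 5 of 12 genes with a probe set were measured and none differed by 2-fold, with differences from -0.11 to 0.23. No single-gene probe set was found for C1rb, C1s2, C4a or C4b. C2, whose product is part of the classical convertase, read 4.46 in the CD8+ subset and 4.49 in the CD8- subset. This was the 1 of 3 C2 probe sets above the floor, and its name marks it as prone to cross-hybridisation. Of the 5 Masp1 probe sets, likewise, 1 was above the floor. The lectin pathway protease gene Masp1 read 4.80 in the CD8+ subset and 4.58 in the CD8- subset, and Fcna, a ficolin gene of the lectin pathway, read 4.13 in the CD8+ subset and 4.24 in the CD8- subset. The C1 protease genes were below the floor on both arrays, with C1ra at 2.45 in the CD8+ subset and 2.69 in the CD8- subset. C1s1 read 2.65 on both arrays. Also below the floor on both arrays were Cfb of the alternative pathway and all 6 terminal component genes with a probe set. The highest of those by the mean over both arrays were C8g (3.80 in the CD8+ subset and 3.24 in the CD8- subset), C9 (3.14 in the CD8+ subset and 3.33 in the CD8- subset) and C6 (3.01 in the CD8+ subset and 3.08 in the CD8- subset), and the C5 gene Hc read 3.25 in the CD8+ subset and 2.57 in the CD8- subset. Of 13 other regulators with a probe set, 2 were measured, Clu, the gene of the fluid-phase inhibitor clusterin (5.12 in the CD8+ subset and 5.27 in the CD8- subset), and Susd4 (4.82 in the CD8+ subset and 4.33 in the CD8- subset). Cd46, a membrane cofactor gene, was just below the floor, at 3.62 in the CD8+ subset and 3.71 in the CD8- subset. Cr2 and Vsig4, receptors of B cells and macrophages for C3 fragments, were below the floor in both populations.

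**Figure D3:**
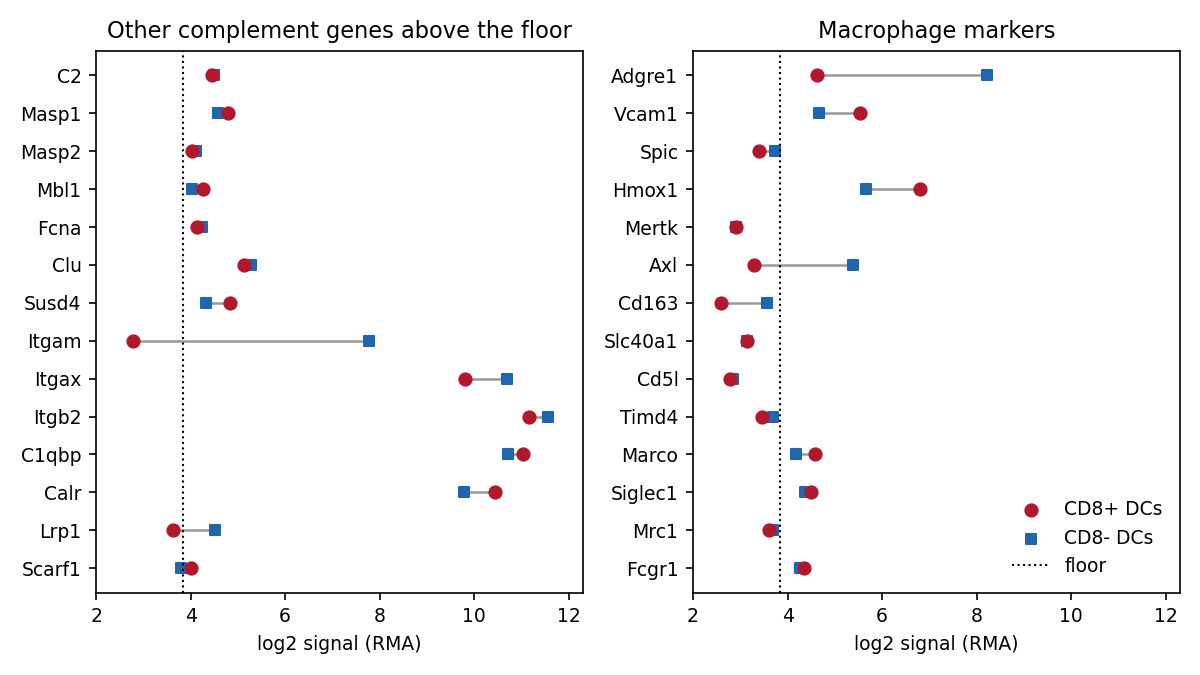
Log2 signal in CD8+ DCs (circles) and CD8- DCs (squares) of the 14 measured other complement genes (left) and of 14 macrophage markers (right), with the floor of 3.85 dotted. Itgam is the 1 complement gene in the left panel that differs by 2-fold or more, and Adgre1, Axl and Hmox1 do so in the right panel.

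The genes with values nearest to those of C1qa and C1qb, by Euclidean distance over the 2 arrays, were Gpm6b, Jag1 and Tbx21 for C1qa, within 0.25, and Axl, Hacd4 and Gbp7 for C1qb, within 0.06. Within a distance of 0.5 lay 26 genes for C1qa and 27 for C1qb. The CD8+ values behind these distances are below the floor and levels of different probes are not comparable, so nothing is read from this nearness or its order.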

How the data were processed

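Biotin-labelled cRNA from 2 sorted DC populations was hybridised to Affymetrix arrays, 1 per population. The deposited table holds log2 signals per probe set, made by the authors with RMA, per the submitters' processing notes, which give no version. RMA corrects background, equalises the arrays' distributions and summarises probes, so a change common to most transcripts is hidden. Array medians were 3.86 for CD8+ DCs and 3.83 for CD8- DCs.

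Gene names came from the platform annotation, with symbols updated by gene identifier from RefSeq (GRCm38.p6; 34754 of 34958 single-gene probe sets matched). The other 932 probe sets with several genes and 9211 without an entry were not used. The probe set with the highest mean stood for a gene. The floor was the median of all values, and genes were counted at 2-fold by the values as deposited. A fold is given as a lower bound, with the floor in place of a dimmer value below it, and counts made that way are given beside the main ones. All members are named with every probe set. Of other complement genes, those at least 2-fold different and the brightest of each list are named, and of the marker lists, those at least 2-fold different. Other markers, C1ra, C1s1, Cfb, Hc, Cr2 and Vsig4 are named for their role, with their values seen. Members and lists were chosen with earlier results of these data known. The number of arrays limits the precision. Alternatives were another centring, a lowess trend (span 0.3), other filters, probe set choices and thresholds. Python 3.11.15, numpy 2.4.6, pandas 2.3.3 and statsmodels 0.14.6 were used. The 2-fold count was tried on simulated data with differences planted in brighter genes only. That trial did not cover differences near the floor, the choice of probe set or the lower bounds.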

Additional observations from a re-analysis of the deposited data

How the results depend on the processing

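No paired analysis was possible because each population has 1 array, and for the same reason no array could be left out. The count of 4 members at least 2-fold higher in CD8- DCs was 1 with the filter at the 75th percentile of all values (6.01). Cfp and Cr1l alone were measured there. At a threshold of 4-fold the count was 2, C1qa and C1qb by the values as deposited. Their lower bounds were 2.75-fold and 2.96-fold, so neither is shown to reach 4-fold. The count was 3 with probe sets averaged, without Cfp, and 3 with the floor in place of values below it, without C1qc. No alternative gave a member higher by 2-fold or more in CD8+ DCs. The median log2 difference of -1.29 was -0.73 with the stricter filter and -0.18 without a filter. The count of 1 other complement gene was 2 after the lowess trend was subtracted, adding Lrp1, and 4 at 1.5-fold. The CD8+ value of Lrp1 is below the floor, and its lower bound is 1.60-fold higher in CD8- DCs. Of 37 values of single members under the alternatives, 6 moved by more than 0.30, the SD between probe sets, and none changed direction past 2-fold. Many of these values could not move. A filter leaves a difference as it was, and no probe set standing for a measured member was of the kinds left out by name. The share that stayed is thus no measure of stability. The arrays carry no replicate, and signals below the floor set only bounds.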
